A study of Rattus norvegicus with 4 samples.

Results

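The genes described here encode the proteins of the cytoplasmic ribosome. They were taken by name: every rat gene whose symbol starts with Rpl, Rps or Rplp followed by a number, leaving out the S6 kinases and the mitochondrial ribosomal proteins. The probes of the arrays matched 76 such genes, and 75 of them were measured, among 9302 named genes measured in all. They were 43 of the 46 core genes of the large subunit, 27 of the 30 core genes of the small subunit and 5 genes whose symbols mark them as copies of a core gene (Rpl22l1, Rpl36al1, Rpl37al2, Rpl37l1 and Rplp1l1). Rps12l4 was matched but too dim to be kept.

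RNA came from hypothalamic tissue blocks of 8 male Sprague Dawley rats. All 8 drank 0.025% methimazole, which blocks thyroid hormone synthesis, over 22 days, so the controls were hypothyroid too and no rat with normal hormone levels entered the comparison. On day 21, 4 rats received triiodothyronine (T3, the active thyroid hormone, 25 µg per 100 g) and 4 received saline, and all were killed 24 h later at 10 weeks of age. Each of the 4 Agilent arrays was read in both dyes and held amplified RNA of a T3 rat in one dye and of a saline rat in the other, and the dyes were swapped: Cy5 marked the T3 rat on arrays 1 and 3, Cy3 on arrays 2 and 4. Every value below is a log2 ratio of T3 over saline, so a value above 0 is a higher signal after T3, and each is the ratio of the gene's brightest probe.

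A ribosome joins a small subunit, which reads the mRNA, to a large subunit, which forms the peptide bonds, and the proteins of both are made in matching amounts. Their mRNAs are among the most abundant in any cell, and most begin with a cytosine followed by a run of pyrimidines, the terminal oligopyrimidine (TOP) motif. Through it the mTOR kinase complex and the RNA-binding protein Larp1 set how well these mRNAs are translated and how long they last. Thyroid hormone is known from rat liver to raise the production of ribosomes. Arrays measure the mRNAs and not their translation.

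The start-site sequences of some of the named members are shown because this motif is what the mRNAs are known to share. In the RefSeq promoter table of rat assembly GRCr8, 59 of the 75 measured genes were matched, with 60 promoters. Each window below runs from 10 bases before the annotated start to 20 bases from it, 30 bases in all, on the gene's own strand. Where the annotated start is a C followed by at least 4 pyrimidines (C or T), capitals mark the letters from that start to the end of the run. Otherwise they mark the first such run in the window.
Rplp0, chr12:46718371-46718400, minus strand: caccgcacttCTCTCgccaggcgtcctcat
Rps18, chr20:4933735-4933764, plus strand: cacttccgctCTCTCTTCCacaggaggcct
Rps15, chr7:10068096-10068125, minus strand: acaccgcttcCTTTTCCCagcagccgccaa
Rpl35, chr3:43165902-43165931, minus strand: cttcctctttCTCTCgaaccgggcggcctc
Rpl5, chr14:1995206-1995235, minus strand: CTTTCCCacgtcgcttgcgtcctggaggtg
Rps3, chr1:163195757-163195786, minus strand: ttcagcggcgcgcggcagcaagatggcggt
In Rplp0, Rps18, Rps15 and Rpl35 the annotated start lies on a C within a pyrimidine stretch, which also reaches ahead of the start in each of them. In Rpl5 the run lies ahead of the start, and in Rps3 this window holds none. Among named members not printed, the marked run of Rps6 and Rps23 lay elsewhere in the window, and Rps19 and Rpl36 held none. The printed set therefore does not show how common the run is.

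A C followed by at least 4 pyrimidines stood at the annotated start in 22 of the 60 promoters (36.7%), against 881 of all 33469 promoters in the table (2.63%). Anywhere in the window on the gene's strand it was present in 46 of 60 (76.7%), against 33.6% of all promoters. Runs of C and T overlap one another and were sought on the transcribed strand alone. A match is a description of letters and not a mapped start, and annotated starts can lie some bases from the true ones.

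No ribosomal protein gene differed between T3 and saline past the threshold. Of the 75 genes, 0 had a Benjamini-Hochberg adjusted p under 0.05 in the limma fit over all probes, and 0 had an unadjusted p under 0.05. Across the whole array 23 of 23184 probes passed (0.0992%), 22 of them higher (0.0949%) and 1 lower (0.00431%). At an unadjusted p under 0.05 the array had 1881 probes (8.11%) and, by brightest probe, 862 of the 9302 genes (9.27%). The smallest p among the ribosomal protein genes was 0.0839, for Rpl32 (limma adjusted p = 0.687). The p-values set each mean against the spread over the 4 pairs of rats, which here also holds the dye orientation, as this fit had no dye term. Limma further draws each probe's spread toward that of all probes, with 4.36 prior against 3 residual degrees of freedom. The number of 4 pairs limits the precision.

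The members lay close together and close to 0. Their mean log2 ratios ran from -0.17 for Rpl32, which is 1.123-fold lower, to 0.10 for Rps2, which is 1.071-fold higher. Rps2, a small subunit protein, is named here because it was the highest, chosen after its values were seen. Its brightest probe had ratios on 3 arrays, and its other kept probes had means of 0.041, -0.019 and -0.0037. With the mean over a gene's probes, the highest member mean was 0.074, for another gene. The standard deviation of the 75 means was 0.060, against 0.150 for the means of all named genes. The limma 95% interval of 74 of the 75 genes lay within 0.5 of 0 on the log2 scale, a 1.414-fold difference, and no interval left out 0. The lowest bound was -0.53, for Rps15, and the highest was 0.40, for Rplp1l1, and the median distance from the mean to either bound was 0.19.

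**Figure D1:**
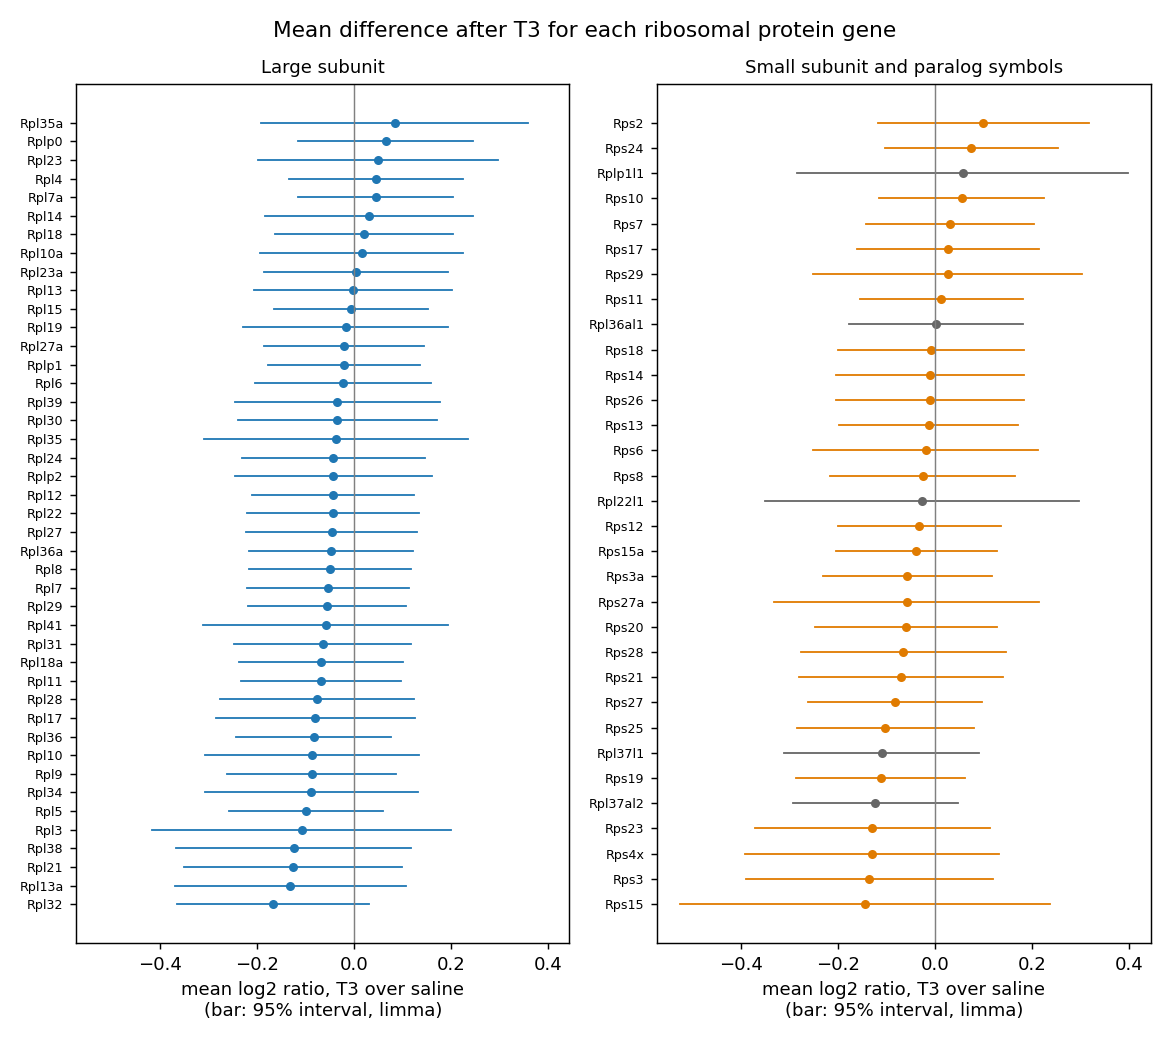
Mean log2 ratio of T3 over saline (x axis) for each of the 75 measured ribosomal protein genes (rows, ordered by value), with large subunit genes at left and small subunit genes and paralog symbols at right. Points are means over the arrays and bars are 95% limma intervals, all of which cross 0, and 4 genes (Rpl22l1, Rpl3, Rpl32 and Rps2) rest on 3 arrays.

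More members lay below 0 than above. The mean was below 0 in 57 of 75 genes (76%), against 4476 of the 9302 named genes (48.1%). Without array 1, 2, 3 or 4 the number of members below 0 was 50, 50, 59 and 51. The median of the 75 means was -0.044, with an interquartile range from -0.082 to -0.0052, while the median of all named genes was 0.0042. On arrays 1 to 4 the medians of the members were -0.097, -0.055, 0.038 and -0.051, and those of all named genes were 0.016, -0.0066, 0.019 and -0.0065. The members thus lay below the other genes on arrays 1, 2 and 4 and above them on array 3. The number of members above 0 was 26 of 75, 28 of 75, 39 of 75 and 30 of 71 on arrays 1 to 4. In bulk tissue fewer cells that make a transcript and less of it per cell cannot be told apart, and a total change in RNA is removed when each array is scaled.

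**Figure D2:**
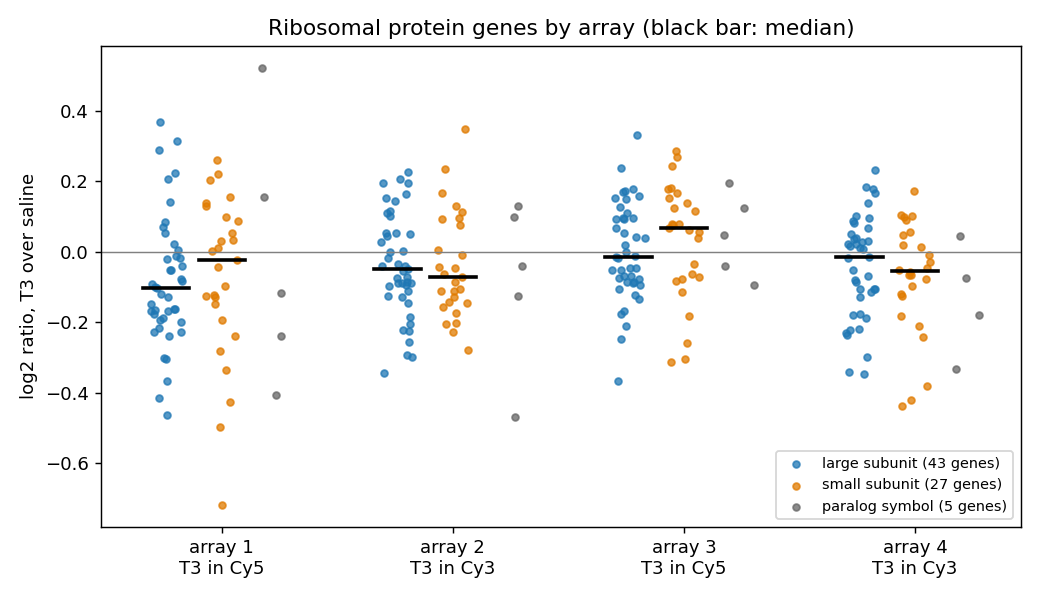
Log2 ratio of T3 over saline (y axis) of each ribosomal protein gene on each of the 4 arrays (x axis), coloured by subunit, with black bars at the medians of the large and small subunit. The clouds straddle 0 on every array, and the bar of the small subunit lies above that of the large on arrays 1 and 3 and below it on arrays 2 and 4.

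The subunits did not part in a way that held over the arrays. The 43 large subunit genes had a median ratio of -0.045, with 34 below 0, and the 27 small subunit genes had -0.033, with 20 below 0. On arrays 1 to 4 the large subunit medians were -0.10, -0.048, -0.015 and -0.014, and the small subunit medians were -0.023, -0.073, 0.067 and -0.055. Large minus small was -0.081, 0.025, -0.082 and 0.041, a mean of -0.024 ± 0.066 (SD, n = 4 arrays), so the spread between arrays exceeded the difference. The sign of that difference followed the dye orientation: the large subunit was the lower on both arrays with T3 in Cy5 and the higher on both with T3 in Cy3. In the median of means the difference was -0.0115. It was 0.0088, -0.047, -5e-04 and -0.024 without array 1, 2, 3 or 4, and 0.042 in the authors' deposited values. The small subunit median was -0.039, -0.0084, -0.056 and -0.021 without array 1, 2, 3 or 4, so arrays 2, 3 and 4 each moved it by more than 1.5 times.

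Rps6, the small subunit protein that S6 kinases phosphorylate when mTOR is active, gave 0.22, -0.23, 0.14 and -0.21 on arrays 1 to 4 (mean -0.020 ± 0.23, SD, n = 4; limma adjusted p = 0.989). It was higher on arrays 1 and 3 and lower on arrays 2 and 4, with no overlap. Rps3, which lines the channel where mRNA enters the ribosome, showed the opposite order, with -0.43, 0.094, -0.31 and 0.10 (mean -0.14 ± 0.27). Rps15, a small subunit protein known from yeast and human cells to be needed for export of the subunit from the nucleus, had the lowest value of any member on array 1, -0.72, and the highest on array 2, 0.35, with -0.31 and 0.091 on arrays 3 and 4 (mean -0.15 ± 0.47). In all 3 genes the mean was smaller than the spread over arrays.

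Rps23, a protein of the decoding centre and one of the 3 members with the brightest probes, gave -0.15, -0.11, 0.18 and -0.44 (mean -0.13 ± 0.25). Rps4x, an X-linked small subunit gene, gave -0.50, 0.17, -0.18 and -0.010 (mean -0.13 ± 0.28). Rps29, a zinc-binding small subunit protein, gave 0.26, -0.047, 0.27 and -0.38 (mean 0.025 ± 0.31). Each of the 3 had values of both signs.

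Rps19, the gene most often mutated in human Diamond-Blackfan anaemia, was below 0 on every array, at -0.28, -0.073, -0.034 and -0.065 (mean -0.11 ± 0.11; limma adjusted p = 0.795). Array 1 stood apart from the other 3, and without it the mean of Rps19 was -0.057. Rpl5, which with Rpl11 binds the small RNA of the large subunit and holds back the p53 regulator Mdm2 when ribosome assembly stalls, gave -0.053, -0.088, -0.070 and -0.19 (mean -0.099 ± 0.060; limma adjusted p = 0.811). Its partner Rpl11, added for that role after its values were seen, gave -0.10, -0.036, -0.17 and 0.027 (mean -0.069 ± 0.084). By brightest probe Rpl5 was thus below 0 on 4 arrays and Rpl11 on 3. Rpl5 had 3 kept probes, and the others had values of both signs. They gave -0.22, 0.042, 0.025 and 0.021, and -0.27, 0.050, -0.11 and 0.029.

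Of the members with 4 ratios, by brightest probe, only Rps19, Rpl5, Rpl36 and Rpl37al2 kept a single sign on all 4 arrays. Rpl36, a large subunit protein, gave -0.16, -0.074, -0.013 and -0.085 (mean -0.084 ± 0.063), and Rpl37al2, by its symbol a copy of Rpl37a, gave -0.24, -0.040, -0.041 and -0.18 (mean -0.12 ± 0.10). All 4 of these genes were below 0. A single sign on 4 arrays was seen in 4 of the 71 members with 4 ratios (5.63%), against 1609 of 9050 named genes (17.8%), and the difference between these shares was not tested.

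The stalk proteins of the large subunit, which recruit the factors of elongation, stayed near 0. Rplp0, the stalk base and a common reference gene, gave -0.051, -0.018, 0.094 and 0.23 (mean 0.064 ± 0.13; limma adjusted p = 0.924). Rplp1 gave 0.0038, -0.048, -0.073 and 0.029 (mean -0.022 ± 0.047) and Rplp2 gave -0.24, 0.19, -0.052 and -0.080 (mean -0.044 ± 0.18). These last 2 are named to complete the stalk, after their values were seen. Rplp1l1, by its symbol a copy of Rplp1, varied most of the 4, with 0.52, -0.47, 0.13 and 0.046 (mean 0.056 ± 0.41), and its values on arrays 1 and 2 were the highest and the lowest of all members there.

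Among the other large subunit proteins, Rpl32 had the lowest mean of all members. It gave -0.20, -0.13 and -0.18 on arrays 1 to 3 (mean -0.17 ± 0.036, SD, n = 3), and its spot on array 4 was marked as an outlier by the scanner software. Its mean therefore weighs the T3-in-Cy5 orientation more than the other. With a dye term in the fit it was -0.16, with Agilent's processed signals -0.15 and in the authors' deposited values -0.033. With arrays centred on the median in place of loess it was 0.11, a setting that leaves in the ratios a dye shift that does not cancel over 3 arrays. Rpl3, a protein near the site of peptide bond formation, also lacked array 4 and gave -0.42, 0.19 and -0.10 (mean -0.11 ± 0.31).

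Rpl35, a protein at the exit of the peptide tunnel, gave 0.21, -0.30, 0.24 and -0.30 (mean -0.038 ± 0.30), 2 high and 2 low values that followed the dye. Rpl8, another member with one of the brightest probes, gave 0.084, -0.097, -0.086 and -0.10 (mean -0.051 ± 0.090), with array 1 alone above 0.

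Rpl13a, Rpl32, Rplp0 and Rps18 are used as reference genes in quantitative PCR. Rpl13a gave -0.30, 0.15, -0.37 and -0.014 (mean -0.13 ± 0.24; limma adjusted p = 0.842) and Rps18 gave 0.16, -0.21, 0.056 and -0.046 (mean -0.0096 ± 0.15; limma adjusted p = 0.996). The limma 95% interval ran from -0.37 to 0.11 for Rpl13a, from -0.36 to 0.030 for Rpl32, from -0.12 to 0.24 for Rplp0 and from -0.20 to 0.18 for Rps18. None of the 4 passed the threshold. These intervals hold only under the loess normalization used here, and that of Rpl32 rests on 3 arrays.

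Of the remaining copies, Rpl22l1, a paralog of Rpl22, gave -0.41, 0.13 and 0.19 on arrays 1 to 3 (mean -0.028 ± 0.33, n = 3). Rpl36al1 gave 0.15, -0.13, 0.048 and -0.075 (mean 5e-04 ± 0.13), and Rpl37l1 gave -0.12, 0.099, -0.093 and -0.33 (mean -0.11 ± 0.18). Each had values on both sides of 0.

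Some ribosomal proteins fall outside the naming rule or are made as fusions. Rps27a is translated as a fusion with ubiquitin and gave 0.054, -0.16, 0.29 and -0.42 (mean -0.059 ± 0.30). Its values on arrays 1 and 3 lay above those on arrays 2 and 4. Rpsa, a small subunit protein also known as the laminin receptor, gave -0.095, -0.084, -0.11 and -0.031 (mean -0.080 ± 0.034; limma adjusted p = 0.861). Fau, whose product is a fusion of a small subunit protein with a ubiquitin-like protein, gave -0.045, -0.0047 and -0.041 on 3 arrays.

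In most members the 2 dyes differed by more than T3 and saline did. In a limma fit with a T3 term and a dye term, the dye coefficient (Cy5 over Cy3) was larger in size than the mean T3 ratio in 52 of 75 members (69.3%), against 5097 of the 9302 named genes (54.8%). In size, the members' dye coefficients had a median of 0.095 and their T3 ratios a median of 0.054, against 0.082 and 0.067 over all named genes. For the dye coefficient, 0 of 75 members passed the threshold, as did 0 of 23184 probes (0%). At an unadjusted p under 0.05 there were 15 members (20%), 8 with Cy5 higher and 7 with Cy3 higher, against 15.6% of named genes and 17% of probes.

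The dye coefficient was highest for Rplp1l1 (0.27), Rpl35 (0.26), Rps29 (0.24) and Rps27a (0.23). It was lowest for Rps15 (-0.37), Rps3 (-0.23), Rpl3 (-0.23) and Rps4x (-0.21). Its smallest p was that of Rpl35, 0.0036 (limma adjusted p = 0.185). The coefficients went both ways, and their median over the members was 0.0057.

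In 46 of the 71 members with 4 ratios (64.8%), both arrays of one orientation lay above both arrays of the other, with the T3-in-Cy5 arrays higher in 28 and lower in 18. Over all named genes with 4 ratios this share was 51.1%. Across the members, ratios correlated between arrays of the same orientation (Pearson r = 0.54 for arrays 1 and 3, 0.32 for 2 and 4) and were inversely related between arrays of opposite orientation (r from -0.69 to -0.28). Over all named genes the same-orientation values were 0.42 and 0.22 and the others ran from -0.11 to 0.22. These are descriptions across 71 or 75 genes, which share arrays, dyes and scaling and are not independent replicates. Because each orientation holds 2 arrays, a dye effect cancels in the mean of 4 ratios, though not for the 4 genes with 3.

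**Figure D3:**
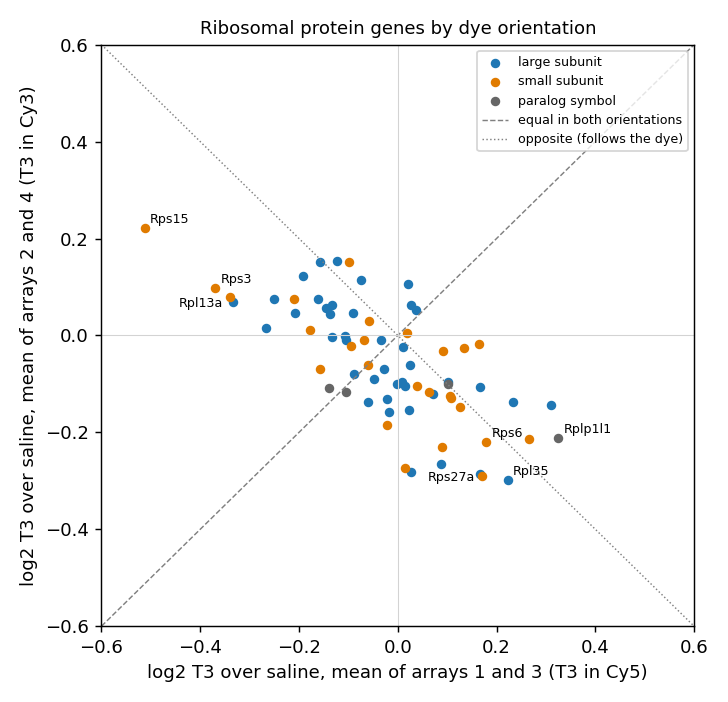
Mean log2 ratio of T3 over saline on arrays 1 and 3, with T3 in Cy5 (x axis), against that on arrays 2 and 4, with T3 in Cy3 (y axis), for the 71 ribosomal protein genes with 4 ratios. Many points follow the dotted line of opposite values, from Rps15 at -0.51 and 0.22 to Rplp1l1 at 0.32 and -0.21, and few lie along the dashed line of equal values.

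Most probes of these genes are bright, and the correction for dye works by brightness. The members had a median log2 brightness of 15.3, against 9.9 for all named genes, though in saline RNA Rplp0 lay at 10.6 and Rps15 at 11.3. Member probes made up 13 of the brightest 100 probes and 74 of the brightest 1000 (7.4%), against 0.466% of all kept probes. They thus weigh in the loess curve at its bright end. With each array centred on its median and no loess, their medians on arrays 1 to 4 were 0.56, -0.84, 0.90 and -0.97, against 0.34, -0.45, 0.52 and -0.55 for all named genes. The sign then followed the dye, and the dye coefficient passed the threshold in 73 of 75 members. With the ribosomal protein probes left out of the loess curve, a setting added after the data were seen, the median of the members was -0.045.

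The median of the bright members lay below that of other bright genes. The 547 other genes at least as bright as the lower quartile of the members had a median ratio of 0.011, with 45.5% below 0, while the 56 members in that range had a median of -0.046, with 44 below 0. The standard deviation of the means was 0.057 for these members and 0.133 for those other genes. On arrays 1 to 4 those other genes had medians of 0.037, -0.0066, 0.011 and 0.0063. The median of all 75 members on array 3, 0.038, was above theirs. The bright genes were chosen after the data were seen and were not matched further by brightness, and the difference in medians was not tested.

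A gene's probes mostly gave like means over the arrays, but probes for these genes may not be specific. In the 24 members with more than 1 kept probe, the means of a gene's probes spread by a median of 0.039, and in 6 genes they differed in sign. The largest spread was 0.1865, for Rps20, a small subunit protein named after its values were seen. Its brightest probe gave -0.24, -0.044, 0.12 and -0.076, and its other probe gave -0.25, -0.31, -0.21 and -0.22 (mean -0.25 ± 0.044; limma adjusted p = 0.324). That other probe, with an unadjusted p of 0.0069, was the 1 of 108 kept member probes under 0.05. The dye coefficients given above are those of the brightest probe. In some genes they differed in sign between probes, as in Rpl13 (-0.15 and 0.33). In others they were alike, as in Rpl10 (-0.16 and -0.13). Both genes are named here after their values were seen. The rat gene table holds 1165 symbols that meet the naming rule, of which 858 are pseudogenes, so a probe may bind transcripts of near-identical copies, and its assignment to 1 gene is uncertain.

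Members with and without a C and pyrimidines at the start had nearly the same median ratio. The 22 genes with such letters from the annotated start onward, as printed above for Rplp0, Rps18, Rps15 and Rpl35, had a median ratio of -0.037 with 17 below 0. The 37 matched genes without one had a median of -0.044 with 28 below 0. No test of this difference was made.

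Related gene lists had medians on either side of 0. Of 19 listed elongation factors and other TOP genes, 16 were measured and 12 were below 0, with a median of -0.027 and array medians of -0.097, 4e-04, -0.070 and 0.031. Their smallest p values belonged to Nap1l1, a histone chaperone (mean -0.17 ± 0.13), and Eif3h, an initiation factor subunit (-0.092 ± 0.062). Of 32 initiation factors 29 were measured, with 17 above 0 and 41.4% below, against 48.1% of all named genes below. Their median was 0.020, with array medians of 0.018, 0.074, 0.048 and 0.046. The smallest p values among them were those of Eif3j (0.17 ± 0.11) and Eif1ax (0.16 ± 0.12). None of these genes passed the threshold in either direction.

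The factors that assemble ribosomes and the mitochondrial ribosomal proteins had more genes above 0 than below. Of 60 listed ribosome biogenesis genes 45 were measured. Of these 31 were above 0, with a median of 0.053 and array medians of 0.061, 0.019, 0.077 and 0.018. The smallest p values among them were those of Ddx56, a nucleolar RNA helicase (-0.012, 0.34, 0.50 and 0.49; limma adjusted p = 0.409), and Taf1c, a subunit of the factor that starts ribosomal RNA transcription (0.20, 0.32, 0.069 and 0.41; limma adjusted p = 0.442). All 63 mitochondrial ribosomal protein genes listed were measured, with 44 above 0 and a median of 0.033. Their array medians were -0.040, 0.035, 0.086 and 0.072. Mrpl35 stood at 0.22 ± 0.17 (limma adjusted p = 0.561) and Mrpl55 at 0.15 ± 0.049. In each of these lists 0 genes passed the threshold, while 5 biogenesis genes, 1 mitochondrial gene, 1 initiation factor and 0 elongation or TOP genes had an unadjusted p under 0.05. These are 11.1% of the biogenesis genes, 1.59% of the mitochondrial ones and 3.45% of the initiation factors, against 9.27% of all named genes.

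Of 28 listed genes of mTOR and S6 kinase signalling 16 were measured, 7 above and 9 below 0, with a median of -0.023. Tsc2, which restrains mTOR, was at -0.11 ± 0.048 and Rps6kb1, an S6 kinase, at 0.14 ± 0.22. In this list 0 genes passed the threshold and 0 had an unadjusted p under 0.05.

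**Figure D4:**
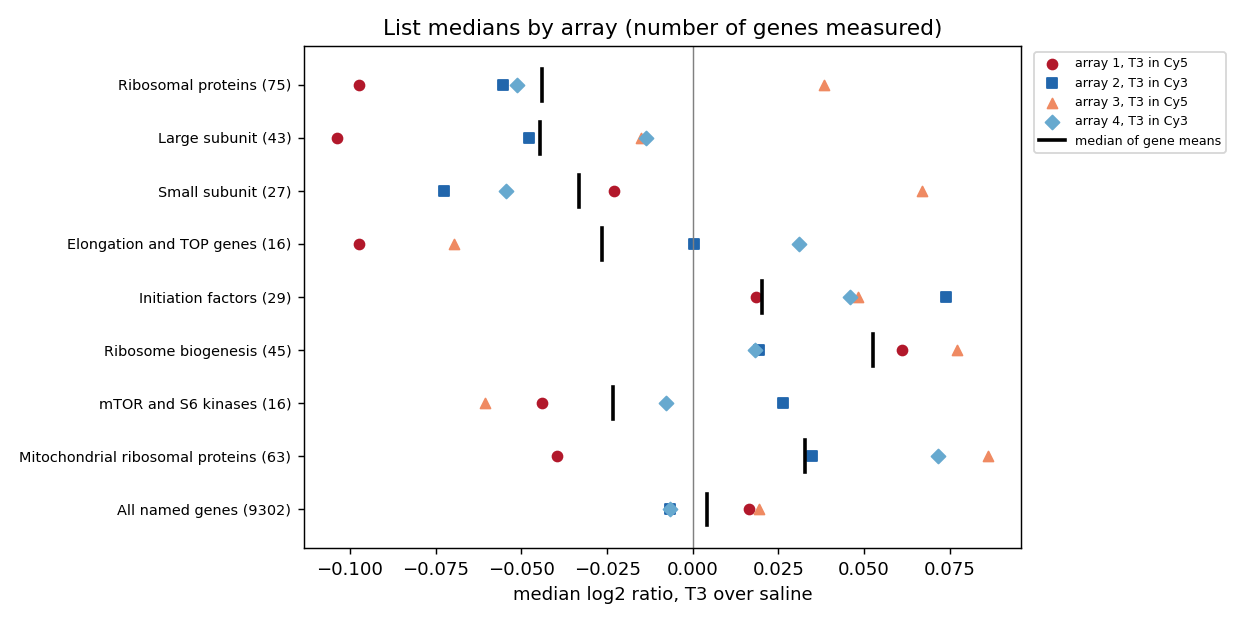
Median log2 ratio of T3 over saline (x axis) of each gene list (rows, with the number of genes measured) on each of the 4 arrays (coloured symbols) and over the gene means (black bars). The ribosomal protein genes have a median of -0.044 with array 3 at 0.038, while the mitochondrial ribosomal proteins have 0.033 with array 1 below 0.

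On the arrays as a whole, 49.8% to 67.3% of probes stood well above background in T3 RNA and 51.1% to 62.5% in saline RNA, whereas all 75 members were so in both channels on all 4 arrays, with 0 saturated spots. All 10 markers of hypothalamic neurons were well above background on every array, and 9 of them lay below 0, with array medians of 0.070, -0.17, -0.47 and -0.16. The vasopressin gene Avp was at 1.17 on array 1 and -2.63 on array 3, and the oxytocin gene Oxt at 1.81 and -2.53. Of the 7 measured markers of neurons in general, 5 lay above 0, with array medians of 0.079, 0.064, -0.056 and -0.066. Of the astrocyte markers 5 of 6 lay below 0, with array medians of -0.22, -0.39, -0.27 and 0.13, and of the oligodendrocyte markers also 5 of 6, with -0.22, -0.35, -0.29 and 0.15. Array 4 thus stood apart from the other 3 in the medians of these 2 lists of glial markers, but not in those of microglia. Of the 6 microglia markers 4 lay below 0, with array medians of 0.20, -0.18, -0.25 and 0.038. On array 3 the 4 measured choroid plexus markers had a median of 1.61, with transthyretin (Ttr) at 3.53, against 0.28, -0.37 and -0.034 on arrays 1, 2 and 4. On array 2 the 3 measured red blood cell markers had a median of -3.25, against 0.34 to 1.35 elsewhere. Array 3 was also the one with the highest median of the ribosomal protein genes, and the part of all these markers in its value, and in the 57 of 75 members below 0, was not tested. Without array 3 the median of the members was -0.057, without array 2 it was -0.045 and without array 4 it was -0.033.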

How the data were processed

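Per the file headers, the deposited scanner files were made with Agilent Feature Extraction 10.7.3.1 and hold intensity values, the median pixel brightness of spot and background in each dye, not normalized. The same files hold intensity values that the scanner software had background-subtracted and dye-normalized, per the file headers. A value table deposited by the authors holds log ratios, taken as log2 which the submitters' processing notes tie to limma 3.18.9. The log base, scale and centring of its values are not given in the sources used here, and its column medians were 0.0026, -0.0024, 0.0021 and 0.0030. It was read as T3 over saline because its spike-in probes change sign with the dye orientation, but over the kept probes it correlated with the ratios used here at only 0.43, 0.43, 0.19 and 0.28 on arrays 1 to 4. The array design was annotated on rn4, per the file headers.

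The planned analysis had assumed mean spot signals, and the median signals the files hold were used instead. In R 4.3.3 with limma 3.58.1, normexp (offset 50) served as background correction, and loess was fitted within arrays, giving control spots weight 0. Outlier spots were left out, and ratios were turned to T3 over saline. Kept probes were well above background on at least 3 of 4 arrays in the RNA of one treatment and with a ratio on at least 3, which left 23184 of 41012. Accessions were matched to RefSeq GRCr8 symbols, and 16964 probes had 1 symbol and 24048 had none. Tests were 2-sided in limma (lmFit and eBayes) with Benjamini-Hochberg adjustment over all kept probes and a threshold of 0.05, each array taken as an independent pair of rats. Errors are standard deviations over arrays. The fit was tested on simulated data.

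The members and lists were chosen with earlier results of these data known. Genes named were those past the threshold, those with 1 sign on all arrays, those of smallest p, of highest and lowest dye coefficient and of brightest probe, common reference genes, Rps6, Rpsa, Fau and the copies, plus any said in the text to be added. A further gene of this rule is not reported here. Of each related list the 2 of smallest p were named. Alternatives were other background correction, signals, normalization, filters, probe choice, fits and values, and each array left out.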

Additional observations from a re-analysis of the deposited data

Results flagged for a closer look

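In 28 results with 4 arrays, the highest or lowest array was compared with the range of all 4, and 2 had an array far from the others, where chance gives about 1 in 20. Rps19, of the small subunit, lay at -0.28 on array 1 and between -0.073 and -0.034 on the other 3, a gap of 0.842 of the whole range. Rpl8, of the large subunit, lay at 0.084 on array 1 and between -0.10 and -0.086 on the other 3, a gap of 0.9 of the whole range.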

How the results depend on the processing

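Under every alternative run, 0 ribosomal protein genes passed the T3 threshold, and their median ratio was below 0, from -0.089 (the authors' deposited values) to -0.033 (without array 1). The number of probes past the T3 threshold, 23, was 0 with Agilent's processed signals (1949 at an unadjusted p under 0.05), 0 with median centring (132), 67 with no filter on dim probes, 15 with the dye term, 10 in the authors' deposited values and 38 with a trended, robust fit. Leaving out an array gave 0 to 68 probes, with 0 without array 1, 3 or 4 (1403, 1383 and 1577 unadjusted) and 68 without array 2. The members above 0, 18, were 10 with median centring and 9 in the authors' values. Without array 1, 2, 3 or 4 they numbered 25, 25, 16 and 24. The large subunit median was -0.091 with median centring and the small subunit median was -0.105 in the authors' values. For the dye coefficient, median centring gave 15472 probes and 73 members past the threshold and a member median of 0.83, and the authors' values gave a median of 0.13. Dye-coefficient probes past the threshold numbered 3 without the filter on dim probes and 3 with the trended, robust fit, and 0 to 26 with 1 array left out, 26 without array 4. The cause of these differences was not tested. Of 308 values of single named genes, 25 changed sign and 4 moved by more than their standard deviation. Leaving out saturated spots was not run, as there were none. Every array is itself a pair of rats and was tested as such, and no further pairing was possible because the arrays form 1 group. The 4 arrays limit the precision, with a median of 0.19 from a member's mean to either 95% bound, and every member's signal stood well above background.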
